A study of Meleagris gallopavo with 12 samples.

Results

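FSHB encodes the beta subunit of follicle-stimulating hormone (FSH), and INHBA encodes the beta A chain shared by activin A, activin AB and inhibin A. Their transcripts were measured in tissue of the premammillary nucleus, a hypothalamic cell group, taken from turkey hens. The members were the chicken oligonucleotide probes of the array whose description ends in either symbol, which gave 2 probes of 20460, 1 for each gene, or 2 of the 5536 genes with a symbol. FSHB was measured by probe RIGG16682 and INHBA by probe RIGG09100. Both genes have an entry under the same symbol in the turkey RefSeq annotation (assembly 5.1), and no coordinates are given because the files name no genome build. Both genes were selected on their log2 differences between the groups in an earlier analysis of these data, so those values are a description, without a test.

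The 12 samples were pools of tissue from 6 hens, 4 pools in each of 3 groups. Short-day photosensitive hens (SDPS) lived under 6 h light and 18 h dark. Long-day photosensitive hens (LDPS) had been moved to 16 h light and 8 h dark for 10 days. Long-day photorefractory hens (LDPR) had been held on long days through a full laying cycle and moult, after which hens no longer respond to long days, on a schedule whose hours the labels do not state. RNA of pools from different groups was labelled with Alexa Fluor 555 or 647 and hybridised as pairs to 6 arrays, so that each pair of groups met on 2 arrays, 1 in each dye orientation. In such bulk tissue, fewer cells of a type and less RNA per cell cannot be told apart.

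FSH is a pituitary gonadotropin built from a common alpha subunit, shared with luteinising hormone and thyrotropin, and its own beta subunit, and it drives the growth of ovarian follicles. Activins are dimers of inhibin beta chains that raise FSHB transcription in pituitary gonadotropes through type II and type I receptors and the signal proteins SMAD2 and SMAD3. Inhibins pair a beta chain with the alpha chain, INHA, and oppose activin, while follistatin (FST) binds activin and blocks it. These roles are known mainly from the mammalian pituitary and ovary. FSHB is a gene of the anterior pituitary, which lies outside the nucleus sampled here.

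Median spot amplitudes, in the arbitrary units of the scanner software, ran from 92.65 to 276.5 over the 12 channels. Precision is limited by there being only 6 arrays. Between 91.6% and 96.6% of probes were brighter than the 95th percentile of the 1480 empty spots in 11 channels, against 79.3% in the channel of LDPR pool 2. The labelled cell group was checked by 4 measured markers of 10 listed for its dopamine-melatonin neurons (TH, SLC18A2, ASMT and OPN4). All 4 were brighter than the 95th percentile of empty spots in every channel. Their mean log2 level ran from 7.34 to 7.79 in SDPS, 7.71 to 7.79 in LDPS and 7.52 to 7.68 in LDPR pools. Only OPN4 was bright, with group means of 11.81 to 11.91. TH, SLC18A2 and ASMT were dim, with group means of 5.97 to 6.64, near those of INHBA (6.18 to 6.36). TPH2, also listed and on the array, was brighter than the 95th percentile of empty spots in only 6 of 12 channels. It had a confident spot on too few arrays for a test, so the 4 markers are those that passed this filter. Nothing beyond the pool labels says how the hens of each pool were drawn, so the p-values below measure the spread between these pools and arrays.

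Both members were dim. The mean brightness of FSHB lay above that of 6.29% of the 18012 tested probes, and that of INHBA above 15.7%. In each channel the spot was set against the 95th percentile of that channel's empty spots, so that a ratio above 1 is brighter than nearly all spots without a probe. For FSHB this ratio was 2.28, 2.12, 2.35 and 1.26 in SDPS pools 1 to 4. It was 3.33, 3.04, 2.89 and 1.95 in the LDPS pools, and 1.27, 0.865, 1.45 and 1.17 in the LDPR pools. FSHB was therefore above that mark in 11 of 12 channels, and LDPR pool 2 lay below it.

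For INHBA the ratio to empty spots was 2.89, 3.06, 4.02 and 1.54 in the SDPS pools. It was 2.24, 2.69, 2.72 and 3.31 in the LDPS pools, and 2.53, 0.835, 1.88 and 3.53 in the LDPR pools. INHBA likewise passed in 11 of 12 channels, with LDPR pool 2 the exception. Against the stricter 99th percentile of empty spots, FSHB passed in 2 channels (SDPS pool 3 and LDPS pool 1) and INHBA in 3 (SDPS pools 1 and 3 and LDPR pool 1). Neither probe was brighter than the brightest empty spot in any channel. That spot was itself brighter than the median probe in every channel, from 315 in SDPS pool 3 to 52546 in LDPR pool 4. The 99th percentile was also above the median probe in LDPR pool 4 (547 against 277) and LDPS pool 4 (335 against 240). In every other channel the median probe was above the 99th percentile, so there most probes passed a mark that the members mostly failed. In SDPS pool 1, FSHB fell just short of it (98.3 against 98.6), and 20.1% of probes were dimmer than FSHB. The exact share of all probes past these stricter marks was not counted.

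**Figure D1:**
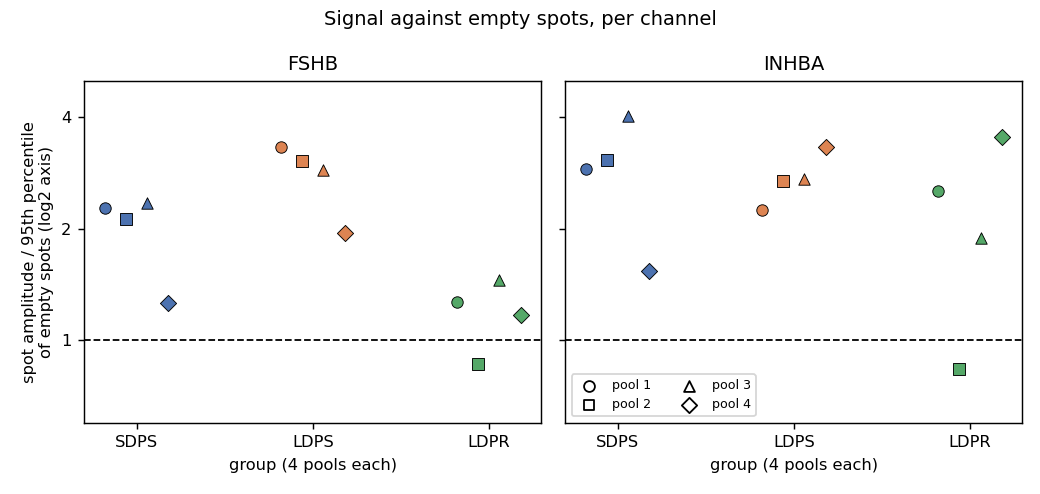
Ratio of the FSHB and INHBA spot amplitude to the 95th percentile of empty spots of the same channel (vertical axis, no unit, log2 scale, dashed line at 1), for each of the 12 pools by group. FSHB lies between 1.95 and 3.33 in the LDPS pools, and both genes fall below 1 in LDPR pool 2.

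The scanner software gave each spot a probability of being on. For FSHB this score ran from 0.83 to 0.9 in SDPS, from 0.95 to 1 in LDPS and from 0.72 to 0.84 in LDPR channels. For INHBA it ran from 0.79 to 0.99 in SDPS, from 0.87 to 1 in LDPS and from 0.18 to 0.99 in LDPR channels, the lowest again in LDPR pool 2. A confidence score for the whole spot, of at most 1, lay between 0.16 and 0.51 for FSHB and between 0.13 and 0.77 for INHBA over the 6 arrays. Spots under 0.1 were left out, and both members were kept on all 6 arrays.

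FSHB had its highest levels in LDPS pools. Its normalised log2 level was 6.66, 6.43, 6.15 and 6.19 in LDPS pools 1 to 4, with a mean of 6.36 ± 0.24 (SD, n = 4). It was 6.14, 5.88, 5.80 and 5.56 in the SDPS pools, with a mean of 5.85 ± 0.24 (SD, n = 4). It was 5.19, 5.62, 5.51 and 5.45 in the LDPR pools, with a mean of 5.44 ± 0.18 (SD, n = 4). All 4 LDPS pools lay above all 4 SDPS pools, but the lowest LDPS pool (6.1451) and the highest SDPS pool (6.1423) were almost level. The LDPR pools all lay below the LDPS pools, with a clear gap, and LDPR overlapped SDPS.

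INHBA showed no such order. Its normalised log2 level was 6.50, 6.40, 6.69 and 5.85 in SDPS pools 1 to 4 (mean 6.36 ± 0.36, SD, n = 4). It was 6.10, 6.26, 6.10 and 6.70 in the LDPS pools (mean 6.29 ± 0.28, SD, n = 4), and 6.38, 5.59, 5.91 and 6.83 in the LDPR pools (mean 6.18 ± 0.54, SD, n = 4). The groups overlapped in all 3 comparisons, and the neighbouring means differed by less than the spread within a group. A level carries the mean brightness of its spot, which both pools on an array share. INHBA was lowest in LDPR pool 2 and SDPS pool 4, which shared an array. It was highest in LDPR pool 4 and LDPS pool 4, which shared another. FSHB levels carry it too, and SDPS pool 1 (6.14) and LDPS pool 1 (6.66), highest in their groups, shared an array. The ratio within an array does not carry that brightness.

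**Figure D2:**
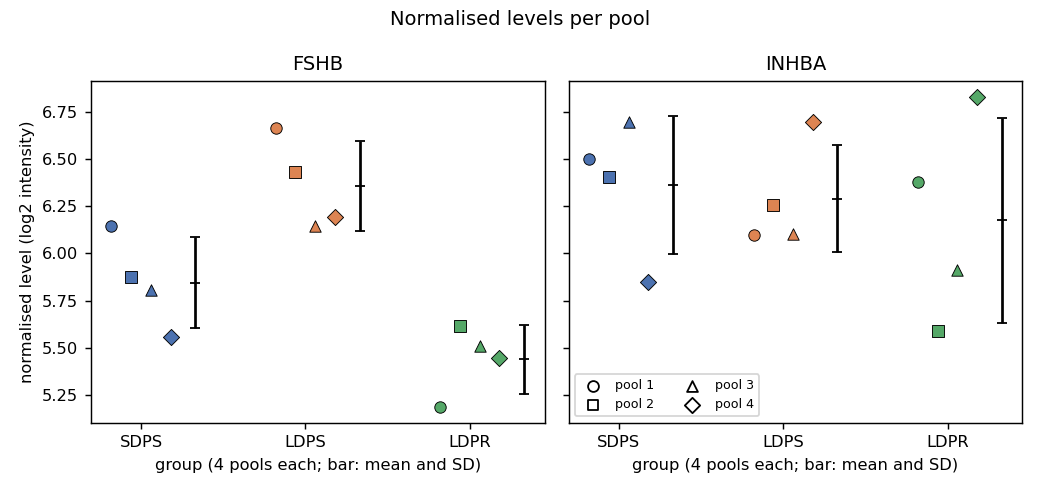
Normalised log2 level of FSHB and INHBA in each of the 12 pools (points, vertical axis in log2 units) by group, with the group mean and SD (n = 4 pools). FSHB is highest in the LDPS pools (6.15 to 6.66) and the INHBA groups overlap.

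FSHB was higher in LDPS than in SDPS hens by 0.50 (SE 0.12) on the log2 scale, or 1.41-fold. On the arrays where both groups met, the normalised log2 ratio was 0.52 for pool 1 of each group and 0.56 for pool 2 of each, with the dyes reversed. Both ratios had the same direction and nearly the same size, and before normalisation they were 0.47 and 0.60. When 50 units were added to each amplitude before the logarithm, which shrinks ratios of dim spots, the estimate was 0.30. Among the 18012 tested probes this was the 36th highest difference, and it was one of the values that led to the choice of FSHB. No probe passed an adjusted p of 0.05 in this comparison (background 0% of tested probes by limma with Benjamini-Hochberg adjustment), and 780 (4.33%) had an unadjusted p under 0.05, of which 3.03% of tested probes were higher and 1.3% lower. Of 16748 probes measured in every pool, 0.681% had all LDPS pools above all SDPS pools and 0.305% had them all below.

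FSHB was lower in LDPR than in LDPS hens by a log2 difference of -0.73 (SE 0.12), or 39.8%. The array of LDPR pool 3 and LDPS pool 3 gave a log2 ratio of -0.64, and that of LDPR pool 4 and LDPS pool 4 gave -0.74, again with the dyes reversed. Both pairs had the lower signal in the photorefractory pool. The array of the pools numbered 3 was quantified later than the other 5, and without it the estimate was -0.86. Before normalisation the pair of values stood further apart, at -0.95 and -0.44. The joint estimate was the 18th lowest of all tested probes, in a comparison where 0.0167% of probes (3) passed the adjusted threshold, 0.0111% higher and 0.00555% lower. An unadjusted p under 0.05 was reached by 13.9% of probes, 4.96% higher and 8.98% lower, and 1.66% had all LDPR pools below all LDPS pools against 0.49% with all above. With the same 50 units added, the estimate was -0.39.

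Between LDPR and SDPS hens, FSHB differed by -0.24 (SE 0.12) on the log2 scale. Here the direct arrays disagreed, with a log2 ratio of -0.62 for LDPR pool 1 against SDPS pool 3 and 0.06 for LDPR pool 2 against SDPS pool 4. Without the first of these arrays the estimate was -0.05, and without the second it was -0.37. The FSHB spot on these arrays had its lowest confidence scores, 0.16 and 0.23, and LDPR pool 2 is the channel in which FSHB lay below the 95th percentile of empty spots. No probe passed the adjusted threshold in this comparison (background 0%) and 1686 (9.36%) had an unadjusted p under 0.05, 3.48% higher and 5.88% lower. All LDPR pools lay above all SDPS pools for 0.299% of probes and below for 0.681%.

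**Figure D3:**
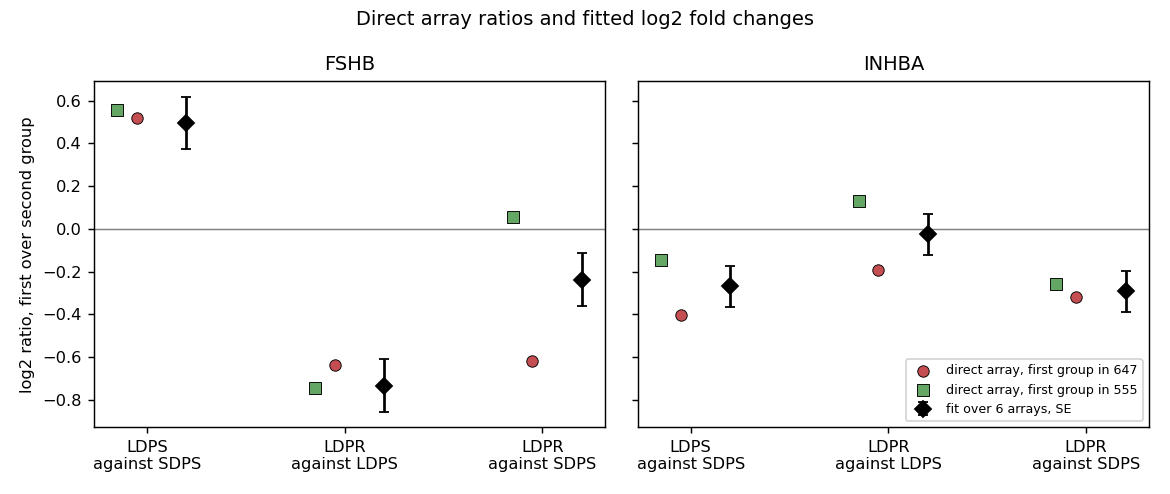
Normalised log2 ratios of FSHB and INHBA on the 2 direct arrays of each comparison (points) with the joint limma estimate and its SE (bar), vertical axis in log2 units. The FSHB points lie at 0.52 and 0.56 for LDPS against SDPS and at -0.64 and -0.74 for LDPR against LDPS, while the LDPR against SDPS points lie on either side of 0.

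INHBA differed less. It was lower in LDPS than in SDPS hens by a log2 difference of -0.27 (SE 0.10), with direct ratios of -0.40 and -0.14. Its difference between LDPR and LDPS hens was -0.02 (SE 0.10), with direct ratios of -0.19 and 0.13 on either side of 0. Between LDPR and SDPS hens it was -0.29 (SE 0.10), with direct ratios of -0.32 and -0.26. SDPS was thus the higher side on all 4 arrays that carried an SDPS pool. Loess fitted within each print-tip block gave -0.09 for LDPS against SDPS and 0.01 for LDPR against SDPS. The 4 ratios before normalisation were all below 0. How many other probes kept 1 direction on these 4 arrays was not counted. Of all tested probes, 4.16% lay at least as far from 0 as INHBA in LDPS against SDPS. The share was 88.6% in LDPR against LDPS and 8.01% in LDPR against SDPS. For FSHB these shares were 0.355%, 0.178% and 13.7% in the same order of comparisons.

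The mean level of haemoglobin transcripts, carried by blood in the tissue, had the same group order as FSHB. The mean log2 level of HBA1, HBG2 and HBZ, the 3 measured of 5 listed blood markers, was 10.30 to 10.98 in LDPS, 10.11 to 10.29 in SDPS and 9.82 to 10.08 in LDPR pools. The 3 groups did not overlap in this mean, but LDPS pool 3 (10.3026) and SDPS pool 1 (10.2852) were almost level, as were SDPS pool 3 (10.1139) and LDPR pool 1 (10.0751). How often the mean of other genes keeps the groups apart was not counted. Singly, HBA1 overlapped between LDPS and each other group, HBG2 between LDPR and SDPS, and HBZ between all groups. HBA1, an alpha-type globin, differed by 0.66 between LDPS and SDPS and by -0.99 between LDPR and LDPS hens, and HBG2 by 0.71 and -0.80. HBZ differed by 0.23 and -0.19, and by 0.04 between LDPR and SDPS hens, so that it did not share the order of the last pair. By limma none of the 3 passed in any comparison, with a smallest adjusted p of 0.102, while 3, 2 and 0 had an unadjusted p under 0.05 in LDPS against SDPS, LDPR against LDPS and LDPR against SDPS (4.33%, 13.9% and 9.36% of all tested probes). In LDPR against LDPS, HBA1 passed (at -0.84) when the array shared by pools 2 of LDPS and SDPS was left out, and also with print-tip loess, the stricter confidence threshold of 0.3 or separate channels. HBG2 also passed there with separate channels. Over the 12 pools, Pearson's r of the haemoglobin mean was 0.85 with the FSHB level and 0.19 with the INHBA level. With FSHB, the means of the other marker lists ran from -0.27 (vessel wall and pericytes) to 0.56 (dopamine-melatonin neurons). Pools on an array share the brightness of each spot, so these r values are a description. The part of blood in the FSHB difference was not tested. Of 5 tested astrocyte and tanycyte markers, SLC1A3, AQP4 and VIM had the opposite signs to FSHB, at -0.34, -0.27 and -0.29 in LDPS against SDPS and 0.37, 0.30 and 0.32 in LDPR against LDPS. SLC1A2 differed by 0.10 and -0.01 and GLUL by -0.15 and -0.16 in these comparisons, with -0.06 and -0.48 for its dimmer second probe. None of the 5 passed the adjusted threshold. At an unadjusted p under 0.05 by limma, 3 were lower in LDPS against SDPS, where 1.3% of all tested probes were lower. In LDPR against LDPS 3 were higher, where 4.96% of all tested probes were higher, and in LDPR against SDPS there were 0. The mean log2 level of the 5 overlapped between groups (9.31 to 9.72 in SDPS, 8.97 to 9.57 in LDPS and 9.06 to 9.78 in LDPR pools), and their part in the result was not tested. The blood and astrocyte lists were chosen with earlier results of these data known, so their counts are a description.

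Pituitary tissue was checked because FSHB is known from there. Of 27 listed symbols of pituitary markers, some of them aliases of the same gene, 12 were tested. All 12 were brighter than empty spots in at least 3 of the 4 channels of every group. The empty-spot mark was passed by 79.3% to 96.6% of all probes in a channel. Their mean log2 level was 8.87 to 8.92 in SDPS, 8.87 to 9.05 in LDPS and 8.85 to 9.02 in LDPR pools, so the 3 groups overlapped. None of the 12 passed the adjusted threshold in any comparison, while 1, 2 and 1 had an unadjusted p under 0.05 in LDPS against SDPS, LDPR against LDPS and LDPR against SDPS (4.33%, 13.9% and 9.36% of all tested probes). The median log2 difference of the 12 was 0.00, -0.01 and -0.02 in that order, against -0.01, -0.01 and -0.01 over all tested probes.

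Between LDPS and SDPS hens the highest pituitary marker was CHGB, a secretory granule protein, at 0.15, and the lowest was CPE, a prohormone-processing carboxypeptidase, at -0.24. Between LDPR and LDPS hens CPE was highest at 0.32 and PITX1, a pituitary homeobox factor, lowest at -0.38. Between LDPR and SDPS hens CHGB was highest at 0.26 and PITX1 lowest at -0.23. PRL, the pituitary hormone of broodiness, differed by -0.01, -0.18 and -0.19 in the 3 comparisons, and POMC, the precursor of corticotropin, by -0.14, 0.09 and -0.05. TSHB, the thyrotropin beta subunit, was below the empty-spot mark in all 12 channels and could not be tested. POU1F1, the factor that drives PRL and growth hormone cells, was above it in 8 of 12 channels and on too few arrays for a test.

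**Figure D4:**
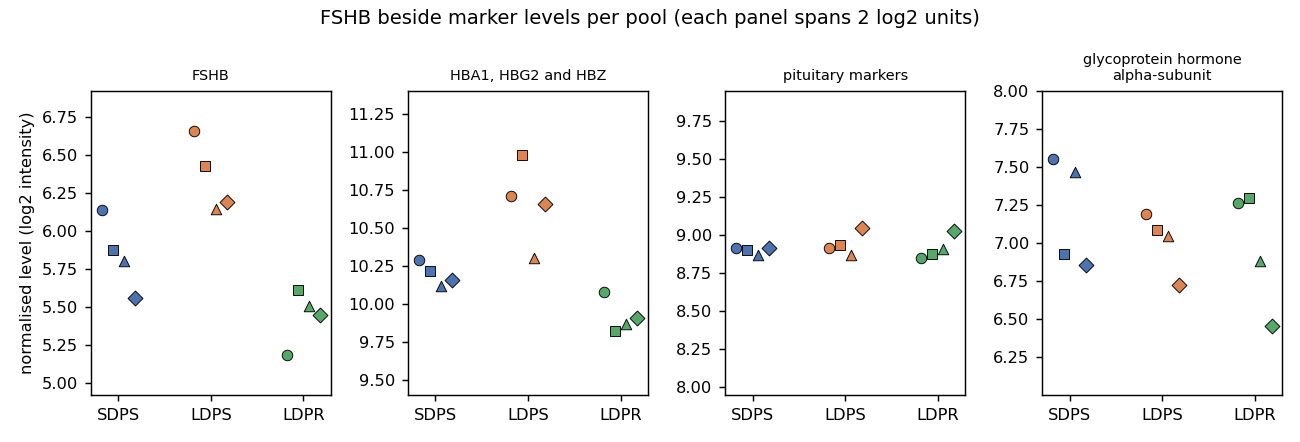
Normalised log2 level per pool (vertical axis, log2 units) of FSHB, of the mean of 3 haemoglobin genes, of the mean of 12 pituitary markers and of the glycoprotein hormone alpha-subunit probe, by group. The mean of the 3 haemoglobin genes is highest in LDPS pools (10.30 to 10.98) and lowest in LDPR pools, the order FSHB showed, and the pituitary markers overlap between groups.

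The partner of FSHB in the hormone, the common alpha subunit, was measured by a probe found by its description (RIGG18767, glycoprotein hormone alpha-subunit) after the values had been seen. Its log2 level was 7.20 ± 0.36 in SDPS, 7.01 ± 0.20 in LDPS and 6.97 ± 0.40 in LDPR pools (SD, n = 4 each), and it was brighter than empty spots in 12 of 12 channels. It differed by 0.05 (SE 0.14) between LDPS and SDPS hens and by -0.07 between LDPR and LDPS hens, with limma adjusted p of 1 and 0.83. The first estimate, which comes from ratios within arrays, has the opposite sign to the difference of the mean levels, and both lie within the spread between pools. FSHR, the receptor for FSH, differed by 0.02, -0.06 and -0.04 in LDPS against SDPS, LDPR against LDPS and LDPR against SDPS. A GnRH-I probe found in the same way (RIGG09856) differed by 0.00, -0.05 and -0.05, with an SE of 0.44 that leaves wide room on either side.

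Among partners of INHBA, the alpha chain INHA differed by 0.07 between LDPS and SDPS, -0.18 between LDPR and LDPS and -0.11 between LDPR and SDPS hens. FST, the activin-binding protein, differed by -0.01, -0.09 and -0.10 in the same order. The activin type II receptor ACVR2A differed by -0.02, -0.01 and -0.03 and its relative ACVR2B by -0.13, -0.17 and -0.30. SMAD2, which carries the activin signal to the nucleus, differed by 0.05, -0.19 and -0.14. None of these passed the adjusted threshold in any comparison. A probe described as activin receptor-like kinase 7, a type I receptor, differed by -0.29 (SE 0.12) between LDPR and LDPS hens, with an adjusted p of 0.333 by limma.

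Of 46 listed symbols of activin, inhibin and follistatin signalling other than INHBA, 23 were on the array and 22 were tested. Some of the listed symbols are aliases of the same gene. None passed the adjusted threshold in any comparison. At an unadjusted p under 0.05 there were 1, 0 and 2 genes, all lower, in LDPS against SDPS, LDPR against LDPS and LDPR against SDPS, where 1.3%, 8.98% and 5.88% of all tested probes were lower at that p. The median log2 difference was 0.03, -0.06 and -0.02, beside -0.01 in each comparison over all tested probes. The highest in LDPS against SDPS was SMURF1, a ubiquitin ligase for SMAD proteins, at 0.24, and the lowest was GDF9, an oocyte growth factor, at -0.22. SMURF1 was lowest in LDPR against LDPS, at -0.25, where SKIL, a repressor of SMAD signalling, was highest at 0.31. Between LDPR and SDPS hens SKIL was highest at 0.29 and GDF9 lowest at -0.32.

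**Figure D5:**
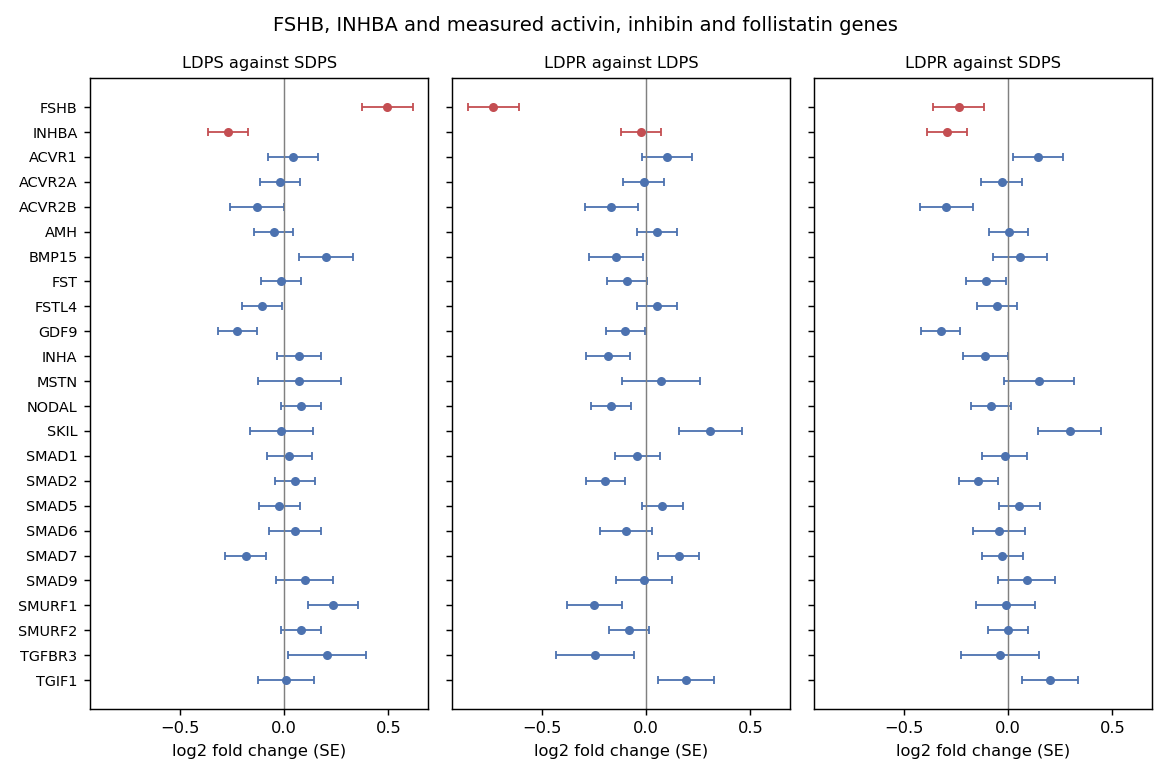
Log2 fold change (horizontal axis) and its SE (bars) from the limma fit for FSHB and INHBA (red) and the 22 tested genes of the activin, inhibin and follistatin list (blue), 1 panel for each comparison. FSHB lies at 0.50, -0.73 and -0.24 and INHBA at -0.27, -0.02 and -0.29, while the listed genes lie between -0.32 and 0.31.

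Of 45 listed symbols of gonadotropins, their receptors and the control of FSH other than FSHB, 30 were on the array and 25 were tested. Aliases of the same gene are among the listed symbols. GAL, the neuropeptide galanin, rose in LDPR against LDPS hens by 1.19 (SE 0.11, adjusted p = 0.0129 by limma). It was the single list member past the threshold, which 0.0167% of all tested probes (3) passed in that comparison. In LDPS against SDPS hens GAL differed by -1.02 with an adjusted p of 0.0832, so that it lay lowest in the group in which FSHB lay highest. Over 17 alternatives its LDPR against LDPS difference ran from 1.07 to 1.26. The call was lost, with 0 list members called, when any 1 of 4 arrays was left out: that of SDPS 1 and LDPS 1, of SDPS 3 and LDPR 1, of LDPS 3 and LDPR 3, or of LDPR 4 and LDPS 4. It was also lost with all spots kept, with no dye intercept and with the direct arrays alone. The median log2 difference of the list was -0.04, 0.00 and -0.04 in LDPS against SDPS, LDPR against LDPS and LDPR against SDPS. At an unadjusted p under 0.05 by limma, 5 of the 25 were lower and 0 higher in LDPS against SDPS, beside 1.3% and 3.03% of all tested probes. In LDPR against LDPS 1 was lower and 3 were higher, beside 8.98% and 4.96%. In LDPR against SDPS 3 were lower and 0 higher, beside 5.88% and 3.48%. The 5 lower genes in LDPS against SDPS were GAL, NPVF, ESR2, ADCYAP1R1 and EGR1. This list was chosen with earlier results of these data known. Its counts and the p-values of GAL are therefore a description and no independent support.

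The other extremes of the gonadotropin list were BMP7 and PITX1. BMP7, a bone morphogenetic protein, was highest in LDPS against SDPS at 0.19, and PITX1 was lowest in LDPR against LDPS. NPVF, the precursor of gonadotropin-inhibitory hormone, was highest in LDPR against SDPS at 0.35. A fit that treated each channel as a sample called 2 list members lower in LDPS against SDPS (GAL and ESR2, an oestrogen receptor) and 3 higher in LDPR against LDPS (GAL, NPVF and ESR2). Over all 18012 tested probes it called 5 and 252 in these comparisons. It called no gonadotropin list member in LDPR against SDPS, and none of the activin list or the pituitary markers in any comparison.

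Likeness to each member was taken as Pearson's r of log2 levels over the 12 pools, among 4943 genes measured on all arrays. It is a description because pools on an array share the brightness of each spot. Closest to FSHB were C4ORF29 (r 0.85), CX3CL1, a chemokine (0.85), ADHFE1, an alcohol dehydrogenase (0.82), TNFAIP6, a hyaluronan-binding protein (0.80) and PSCD3 (0.80). Over the 6 within-array ratios, which drop that brightness, their r with FSHB was 0.95, 0.85, 0.88, 0.89 and 0.78. All 5 were nearer to 0 than FSHB in LDPR against LDPS, from -0.51 for C4ORF29 to -0.23 for PSCD3.

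Closest to INHBA were CHMP1B (r 0.93), INTS4 (0.90), JMJD6 (0.90), GRM5, a glutamate receptor (0.90) and ELOVL1, a fatty acid elongase (0.89). Over the within-array ratios their r was 0.91, 0.91, 0.66, 0.39 and 0.69, so that GRM5 was far less like INHBA in the ratios than in the levels. The median r over all genes was 0.13 for FSHB and 0.17 for INHBA. FSHB and INHBA themselves had an r of 0.06 over the pools and -0.19 over the 6 ratios.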

How the data were processed

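The deposited intensity is 1 amplitude for each spot and channel, which the authors obtained from BlueFuse for Microarrays version 3.6, build 7145, per the file headers. No column holds a background, and none was subtracted here. The deposited confidence score and on-probability score of each spot come from the same software, per the file headers. The files of both pools on an array were identical, so each array was read once. The value table deposited by the authors is on a log2 scale, with column medians of 7.43 to 7.58. Each of its 12 columns lay closer to the channel of its own dye. How the authors normalised and centred it is unknown, and it served as an alternative.

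Spots with a confidence score under 0.1 were missing, and a loess curve (span 0.3, 4 iterations, weight 0 for empty and control spots) was taken from the log2 ratios of each array. A limma model (version 3.58.1, R 4.3.3) with the 3 groups and a dye intercept covered probes on at least 5 of 6 arrays. Adjusted p-values are Benjamini-Hochberg values over all 18012 tested probes, with a threshold of 0.05. Levels per pool were rebuilt from the ratio and the array mean after quantile normalisation of the means. SEs come from the moderated fit, and the fit was tested on simulated data. Probes are chicken sequence, so the brightness of a probe is no measure of a transcript's abundance against another's, and its rank among probes only says how dim the spot was. For a gene with several probes the brightest was used.

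The members and lists were chosen with earlier results of these data known. Named genes were the members, a fixed set of activin and FSH genes, list members past the threshold or at either end of a list, and the 5 genes most like each member. A gene that this rule chose is not reported here.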

Additional observations from a re-analysis of the deposited data

Results flagged for a closer look

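Among 45 groups of 4 pools examined for a sample far from the others, 2 had one, and chance alone gives about 1 in 20. The FST level in LDPR pool 4 was 10.36, while the other LDPR pools lay between 9.43 and 9.52. LDPS pool 4, on the same array, was also high at 10.64. The level of a probe described as similar to follistatin-like 5 was 5.34 in SDPS pool 4, while the other SDPS pools lay between 5.74 and 5.78.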

How the results depend on the processing

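In 17 alternatives each, FSHB kept its direction in all 3 comparisons: 0.30 to 0.59 for LDPS against SDPS, -0.86 to -0.39 for LDPR against LDPS (the last with the offset of 50) and -0.37 to -0.05 for LDPR against SDPS. Leaving out 1 array gave 0.41 to 0.59, -0.86 to -0.64 and -0.37 to -0.05. With confidence under 0.3 missing, FSHB fell below the minimum of 5 arrays and was fitted all the same. Its scores of 0.16 and 0.23 removed both direct arrays of LDPR against SDPS in that setting. INHBA moved to -0.092 (LDPS against SDPS) and turned to 0.0059 (LDPR against SDPS) under print-tip loess; in LDPR against LDPS it ran from -0.06 to 0.10 around 0. The cause was not tested. No activin or pituitary list member was called in any of 102 alternatives. For the gonadotropin list, LDPS against SDPS gave 1 call with the offset, print-tip loess, scaling between arrays, confidence under 0.3 missing or the authors' table, and 2 with separate channels. LDPR against LDPS gave 0 with all spots kept, no dye intercept or direct arrays only, 3 with separate channels, and 0 to 1 when 1 array was left out (0 without the array of SDPS 1 and LDPS 1, SDPS 3 and LDPR 1, LDPS 3 and LDPR 3, or LDPR 4 and LDPS 4). Over all probes the counts of 0, 3 and 0 calls became 5, 252 and 11 with separate channels, and 3 became 18 under print-tip loess and 31 with scaling. Against the 99th percentile of empty spots FSHB passed in 2 and INHBA in 3 channels. Against the brightest empty spot, which was above the median probe in every channel, both passed in 0.

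Deviations of same-numbered pools on different arrays correlated at -0.44 to 0.27 (8 pairs). Differently numbered pools on different arrays ran from -0.47 to 0.47. Because the first range lies within the second, these values cannot decide whether replicate numbers pair the pools. With the replicate number as a block in the separate-channel fit, FSHB gave 0.48, -0.77 and -0.29, INHBA -0.22, -0.01 and -0.24, and the gonadotropin list 1 and 2 calls in LDPS against SDPS and LDPR against LDPS. Both members are dim, so their ratios rest on spots close to background.

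The same alternatives were run for single genes other than the members (GAL, NPVF, ESR2, the fixed set and the haemoglobin genes), a choice made after seeing the data: in 683 of 708 the side of the threshold and the direction stayed, 18 gained and 7 lost a call.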
